A study of Rattus norvegicus with 12 samples.

Results

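The transcripts of 10 feedback inhibitors of the ERK pathway were examined in rat fibroblasts that were kept on plastic or in suspension for 16 h. They are the dual-specificity phosphatases Dusp1, Dusp2, Dusp4, Dusp5, Dusp6 and Dusp10, the Sproutys Spry1, Spry2 and Spry4, and Spred1. They were chosen by name, and every array probe set annotated to 1 of these genes alone was taken, which gave 12 of the 20826 probe sets with a single gene symbol. Of the 10 genes, 9 had such a probe set among the 14217 genes measured: 7 had 1 probe set, Dusp1 had 2 and Dusp6 had 3. Spred1 was not analysed here. Dusp5 and Dusp1 rose in suspension and Dusp6 fell, Spry1 rose by a small amount that depended on the processing, and the other 5 genes did not pass the test.

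The cells were F111, an established fibroblast line from the Fischer rat, so every value here belongs to a single line. A16 cells grew attached to plastic, and NA16 cells were held in suspension over an agar-coated surface, where fibroblasts die by anoikis, the cell death that follows loss of attachment. The study describes most F111 cells as no longer viable at this time in suspension, so NA16 RNA may come from living and dying cells alike. Both states had the same serum-containing medium and the same time, and neither received a drug or a transgene. Each state had 3 Affymetrix arrays, labelled biological replicate 1, biological replicate 2 and technical replicate 2, and the technical array was averaged with biological replicate 1, so that n = 2 per state. The sources used here do not say what made a replicate biological, so the p-values cover the spread between these arrays, and that spread may be technical.

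The ERK pathway carries growth factor signals from receptor tyrosine kinases through Ras, Raf and MEK to the kinase ERK, which enters the nucleus and switches on immediate-early genes. Several of the genes that ERK induces encode its own inhibitors. Dual-specificity phosphatases strip the activating phosphates from ERK, JNK or p38, each with its own preference and cell compartment, whereas Sprouty and Spred proteins act upstream, between the receptor and Raf. In attached fibroblasts integrins help growth factors to keep ERK active, so that adhesion is a known input to this pathway. Phosphorylated ERK was not measured on these arrays, and nothing below is a reading of its activity.

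The sequences just before the transcript starts of the 3 members with the clearest changes are shown because these genes moved in different directions and are known targets of different transcription factors. Each is the 250 bases before the start in RefSeq, assembly GRCr8, plus strand. Capitals mark matches on either strand to the CRE half-site TGACG (bound by CREB and ATF proteins), the CArG box (bound by SRF), the AP-1 site TGANTCA and the ETS core GGAAGT (bound by the factors that ERK phosphorylates).
Dusp1, chr10:17184603-17184852: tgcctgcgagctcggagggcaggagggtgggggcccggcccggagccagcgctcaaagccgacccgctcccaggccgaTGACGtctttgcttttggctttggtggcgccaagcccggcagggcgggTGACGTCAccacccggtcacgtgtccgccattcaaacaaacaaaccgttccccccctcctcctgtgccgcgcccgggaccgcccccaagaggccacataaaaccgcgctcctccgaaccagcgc
Dusp5, chr1:262543524-262543773: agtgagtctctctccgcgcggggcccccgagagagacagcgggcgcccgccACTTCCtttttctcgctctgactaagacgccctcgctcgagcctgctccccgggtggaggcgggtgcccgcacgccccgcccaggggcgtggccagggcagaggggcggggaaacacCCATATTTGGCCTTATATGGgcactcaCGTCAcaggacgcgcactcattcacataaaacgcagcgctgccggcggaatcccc
Dusp6, chr7:35979354-35979603: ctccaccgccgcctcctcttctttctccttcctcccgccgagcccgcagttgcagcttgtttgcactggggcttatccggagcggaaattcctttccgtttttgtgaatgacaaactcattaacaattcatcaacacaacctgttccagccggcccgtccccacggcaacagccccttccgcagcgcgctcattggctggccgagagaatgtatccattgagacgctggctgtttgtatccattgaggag

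In Dusp1 the CRE half-site had 3 matches, 2 of which overlap on opposite strands between 124 and 117 bases before the start. In Dusp5, 2 CArG boxes lay end to end from 82 to 63 bases before the start, with 1 CRE half-site from 55 to 51 bases and 1 ETS core from 199 to 194 bases before it. The Dusp6 window held no match to any motif as spelled here. The ETS core was searched as GGAAGT alone, so a site with other letters would be missed, and the shorter stretch GGAA does occur in this window. A CArG box was found in 1.5% of all 33469 RefSeq windows of this length, a CRE half-site in 18.2%, an AP-1 site in 6.34% and an ETS core in 19.2%. The hypoxia-responsive core ACGTG, which is not in capitals, was in 16.6% of windows and matched 2 overlapping times in Dusp1 and 1 time in Dusp5, where it overlaps the CRE half-site. A window was given for 9 of the 10 members, all but Dusp4, and Dusp5 was the single member of these 9 with a CArG box. These are letter matches and not sites shown to be bound.

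**Figure D1:**
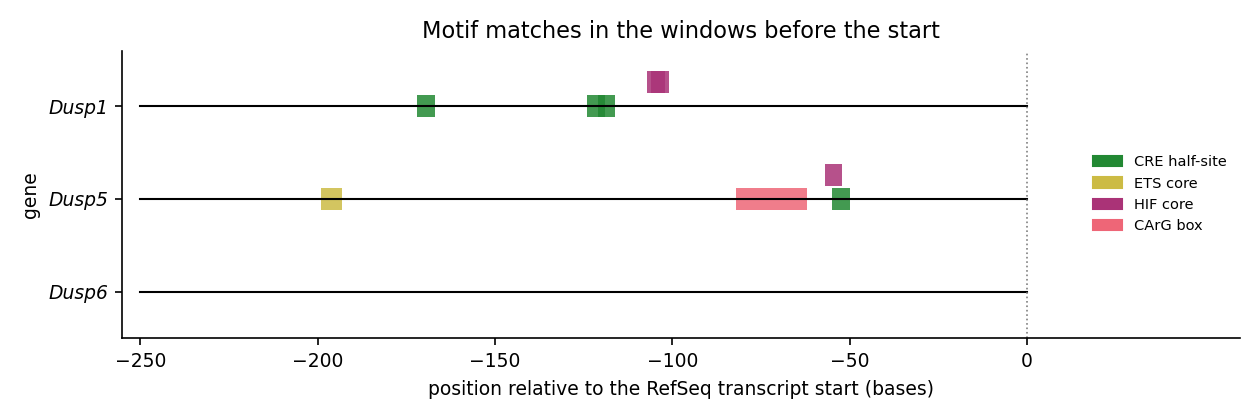
Motif matches in the 250 bases before the RefSeq transcript starts of Dusp1, Dusp5 and Dusp6. The x axis is the position relative to the start in bases, each line is a gene and each block is a match, with the hypoxia core drawn above the line. The adjoining CArG boxes are in Dusp5, and the Dusp6 line holds no match to the letters searched.

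The nuclear phosphatases that growth factors and stress induce were Dusp1, Dusp2, Dusp4 and Dusp5. Dusp5, which acts on ERK alone and holds it in the nucleus, had log2 RMA intensities of 9.56, 9.67 and 9.53 on the A16 arrays of biological replicate 1, biological replicate 2 and technical replicate 2, and of 10.55, 10.86 and 10.96 on the NA16 arrays in that order. All 3 NA16 arrays were above all 3 A16 arrays. The mean rose from 9.61 ± 0.09 to 10.81 ± 0.08 (SD, n = 2), a change of 1.20 on the log2 scale (SE 0.12, limma adjusted p = 3.65e-04), or 2.30-fold. With bulk RNA a change in every cell and a change in the makeup of the culture cannot be told apart, here and for every gene below.

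Dusp1, an immediate-early phosphatase of p38 and JNK as well as ERK, was measured by 2 probe sets. The brighter, 1368146_at, had log2 intensities of 12.88, 12.64 and 13.01 in A16 and 13.36, 13.56 and 13.52 in NA16, with no overlap. It rose by 0.71 (SE 0.14, adjusted p = 0.0068), from 12.79 ± 0.22 to 13.50 ± 0.08 (SD, n = 2), or 1.63-fold. The other, 1368147_at, had 10.73, 10.77 and 10.96 in A16 and 10.66, 11.91 and 11.69 in NA16. Its NA16 array of biological replicate 1 thus lay below all A16 arrays while the other NA16 arrays lay above them, and its mean difference of 0.74 did not pass the test over all probe sets (adjusted p = 0.072). Tested among all probe sets in place of all genes, the brighter one also passed (adjusted p = 0.0149), but it did not without NA16 replicate 2 (adjusted p = 0.074).

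Dusp4, a nuclear phosphatase of ERK and JNK, had log2 intensities of 6.74, 6.51 and 6.70 in A16 and 6.94, 6.89 and 6.79 in NA16. The arrays did not overlap, but the difference of 0.26 (95% interval -0.03 to 0.55) did not pass (adjusted p = 0.153). The algorithm decided this gene: in the PLIER values of the same arrays the difference was 0.80 (adjusted p = 0.0057). Dusp2, best known from activated immune cells, had 6.02, 6.09 and 5.99 in A16 and 6.13, 5.95 and 6.29 in NA16. It was the single member below the 25th percentile of mean intensity, its arrays overlapped, and its difference was 0.03 (95% interval -0.28 to 0.35; adjusted p = 0.898).

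Dusp6, the cytoplasmic phosphatase of ERK and a standard readout of growth factor signalling through ETS factors, went the other way. Its brightest probe set, 1387024_at, had log2 intensities of 11.44, 10.88 and 11.24 in A16 and 10.16, 9.98 and 10.16 in NA16. The mean fell by 1.04 (SE 0.17, adjusted p = 0.00297), from 11.11 ± 0.32 to 10.07 ± 0.12 (SD, n = 2), a 2.06-fold difference. All 3 of its probe sets fell, with every NA16 array below every A16 array in each. The probe set 1377064_at had 10.33, 10.34 and 10.41 in A16 and 9.61, 9.29 and 9.38 in NA16, a change of -0.96 (adjusted p = 0.00296 over all probe sets). The probe set 1382778_at had 10.09, 10.38 and 10.08 in A16 and 9.41, 9.29 and 9.32 in NA16, a change of -0.90 (adjusted p = 0.00579). The sizes of the 3 falls lay within each other's 95% intervals.

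**Figure D2:**
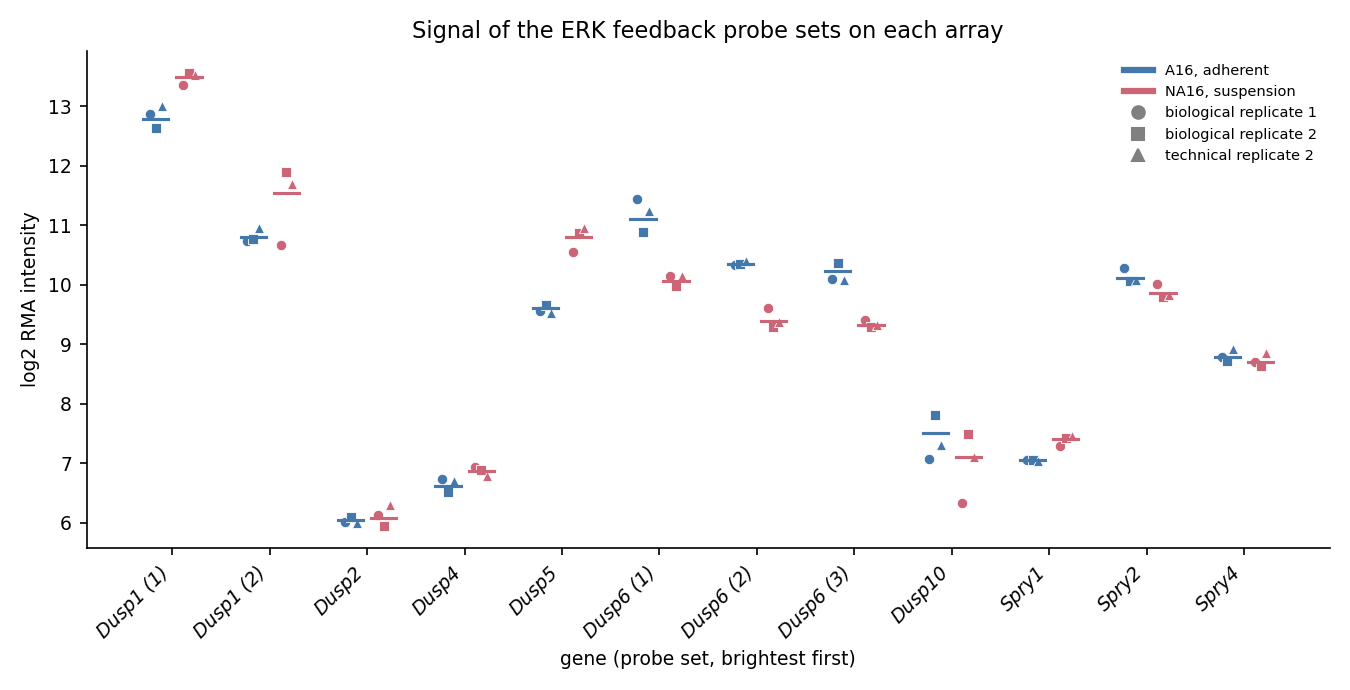
Signal of each ERK feedback probe set on the 6 arrays. The y axis is log2 RMA intensity, the x axis the gene with its probe sets numbered from the brightest, the colours are the states, the symbols the arrays, and each bar is the mean of the 2 replicates of a state after averaging the technical array with biological replicate 1. Of the 12 probe sets, 4 have all NA16 arrays above and 4 have all of them below the A16 arrays. The gap is widest for Dusp5 and the 3 probe sets of Dusp6. In the dimmer Dusp1 probe set 1 NA16 array, at 10.66, lies below all A16 arrays.

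Dusp10, a member that prefers JNK and p38 to ERK, had log2 intensities of 7.07, 7.82 and 7.31 in A16 and 6.33, 7.49 and 7.11 in NA16. The arrays overlapped and the replicates spread widely, with SDs of 0.44 in A16 and 0.54 in NA16. The difference was -0.40 (95% interval -1.09 to 0.29; adjusted p = 0.354), and it ranged from -0.79 to -0.02 as single replicates were left out. The value of -0.79 came without NA16 replicate 2. That fit leaves 1 NA16 sample and rests on a variance shared with all genes, so passing in it says little about Dusp10.

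The Sproutys, which bind adaptors and Raf below receptor tyrosine kinases, did not move as 1 group. Spry1 had log2 intensities of 7.06, 7.05 and 7.04 in A16 and 7.29, 7.43 and 7.45 in NA16, with no overlap. It rose by 0.35 (SE 0.11, adjusted p = 0.0422), or 1.28-fold, but it was called in only 9 of the 20 limma alternatives, and none of the 4 fits that left out a replicate called it. Over all probe sets in place of all genes its adjusted p was 0.0543, just past the threshold of 0.05. The direction was upward in all 20 alternatives, from 0.26 to 0.39.

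Spry2 had log2 intensities of 10.28, 10.06 and 10.08 in A16 and 10.02, 9.80 and 9.83 in NA16. The NA16 arrays lay below the A16 arrays, by -0.26 in the mean (95% interval -0.54 to 0.02; adjusted p = 0.139). It was lower in all 20 alternatives and passed in 2 of them, 1 of which left out the NA16 array of biological replicate 1 (-0.31, adjusted p = 0.0487). Spry4 had 8.78, 8.71 and 8.92 in A16 and 8.71, 8.63 and 8.86 in NA16, which overlap, and its difference was -0.07 (95% interval -0.36 to 0.22; adjusted p = 0.722).

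**Figure D3:**
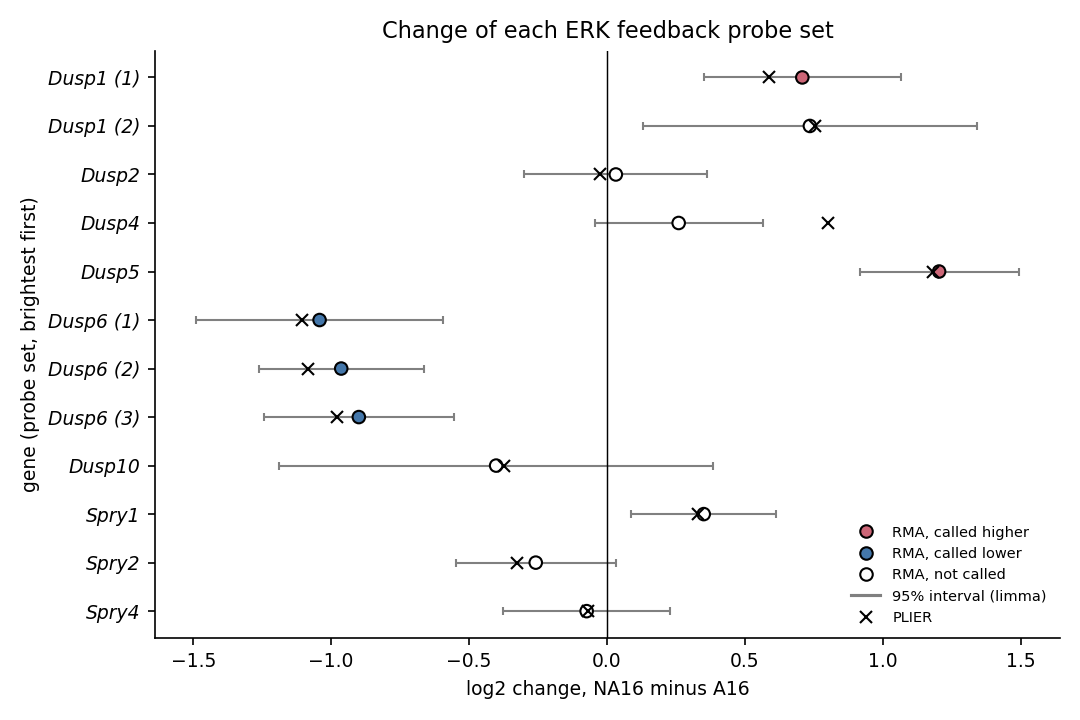
Change of each ERK feedback probe set between the states. The x axis is the log2 change, NA16 minus A16, circles are RMA values filled where limma called them over all probe sets, lines are 95% intervals, and crosses are PLIER values of the same arrays. Dusp5 at 1.20 and the 3 Dusp6 probe sets between -1.04 and -0.90 lie farthest from 0, and the PLIER cross for Dusp4, at 0.80, lies outside its RMA interval.

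Of the 9 genes, 3 were called higher, 1 was called lower and 5 were not called, 44.4% in all. Calls were common on these arrays: 38.9% of all genes passed, 21.9% of them higher and 16.9% lower in NA16 as shares of all genes tested. The members were thus called about as often as any gene. In 4 genes all NA16 arrays lay above the A16 arrays and in 2 all lay below, 6 of 9, beside 51.7% of all genes (27.8% above and 23.9% below). The median change was 0.03 over the members and 0.01 over all genes, and the median absolute change was 0.35 and 0.27. Over probe sets, 2 of 12 were called higher and 3 lower, beside 31.9% of all probe sets called, 16.9% higher and 15% lower. In 8 of the 12 the arrays did not overlap, 4 above and 4 below, beside 49% of all probe sets, 24.5% above and 24.6% below.

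Some features of the whole set of arrays moved with the state, and their part in these results was not tested. The 3′ minus 5′ difference of the beta-actin control probe sets, a sign of RNA integrity, was 0.37 to 0.44 log2 units in A16 and 0.87 to 0.93 in NA16, while that of GAPDH was -0.07 to 0.00 and -0.03 to 0.06. The fibroblast markers Vim, Col1a1, Col1a2 and Fn1 were at or above the 99.2th percentile of all genes, whereas Dcn, at the 10.5th, and Lum, at the 26.1th, were dim. Of the 11 fibroblast markers 5 were called higher and 0 lower by limma (1, S100a4, was lower at an unadjusted p under 0.05), and their summed intensity was 112509 to 129756 in A16 and 96797 to 125841 in NA16. Of 7 macrophage markers 2 were called higher (Cd68 and Lyz2; summed intensity 579 to 652 in A16 and 916 to 983 in NA16), of 6 epithelial markers 2 (Krt8 and Epcam; 1362 to 1528 and 2756 to 3222), of 4 endothelial markers 1 (Pecam1; 242 to 279 and 290 to 294) and of 4 muscle markers 1 (Des; 827 to 930 and 2704 to 4459). The macrophage markers lay between the 1.4th and 38.5th percentiles of all genes (median 29.1), the endothelial ones between the 10.8th and 30.5th, the epithelial ones between the 6.1th and 81.2th and the muscle ones between the 2.6th and 78.1th. The NA16 technical array correlated more closely with biological replicate 2 (r = 0.9968 over 20826 probe sets) than with biological replicate 1 (0.9919), with which it was averaged. With it averaged with biological replicate 2 of NA16 in its place, 2 members were called higher and 1 lower, and the one lost was Spry1 (adjusted p = 0.124). With the NA16 array of biological replicate 1 left out, 3 were higher and 2 lower, the added one being Spry2.

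The phosphatases and Sproutys outside the set were compared next. Of 13 further family genes 11 were measured, with 2 called higher, 2 lower and a median change of -0.05. Beside this list and those below, limma called 38.9% of all genes, 21.9% higher and 16.9% lower. Dusp14, a small phosphatase without a kinase-docking domain, fell by 2.02 (SE 0.14, adjusted p = 1.04e-04), more than any member. Dusp7, a cytoplasmic ERK phosphatase and a close relative of Dusp6, fell by 0.59 (adjusted p = 0.0143), though it did not pass without A16 replicate 2 or without NA16 replicate 2. Dusp19 rose by 0.76 (adjusted p = 0.00229) and Dusp18 by 0.75 (adjusted p = 0.00542). Of the 3 other Dusp18 probe sets, 1 was called at 0.44, and the rest had changes of 0.15 and 0.08 that were not called.

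Upstream of the members, all 8 receptors on the list were measured, and 4 were called higher, 1 lower, with a median of 0.46 beside 0.01 for all genes. The PDGF receptors rose, Pdgfra by 0.78 (adjusted p = 0.002) and Pdgfrb by 1.40 (adjusted p = 0.00108), but the other 2 Pdgfrb probe sets had changes of 0.19 and 0.16 and were not called. Egfr rose by 1.01 (adjusted p = 0.00453) and Fgfr1 by 0.96 (adjusted p = 0.0108). Read as ratios to A16, the quantitative PCR values in the study put Egfr far lower in NA16, opposite to the arrays. Of the 2 other Egfr probe sets, 1 was called at 1.31 and 1 was not at 0.07, and the other Fgfr1 probe set had 0.99 with overlapping arrays (adjusted p = 0.239). Fgfr1 was not called with the mean of its probe sets (adjusted p = 0.0769) or without technical replicate 2 (0.056). Met, the receptor of hepatocyte growth factor, fell by 1.31 (adjusted p = 0.0102).

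Between receptor and ERK, 24 of the 31 cascade genes on the list were measured, and the rest were not analysed here. Of the 24, 8 were called higher and 4 lower, with a median of 0.08. The small GTPase genes Mras and Rras rose by 1.60 (adjusted p = 0.0031) and 0.58 (adjusted p = 0.012), and Mknk1, a kinase that ERK and p38 activate, rose by 1.33 (adjusted p = 5.06e-04). Ptpn11, the phosphatase Shp2 that Ras activation requires, fell by 0.98 (adjusted p = 0.00301). The 2 MEK genes moved in opposite directions: Map2k1 rose by 0.52 (adjusted p = 0.0188) and Map2k2 fell by 0.72 (adjusted p = 0.0475), and they were called in 17 and 13 of 20 alternatives. Map2k1 was lost without A16 replicate 2, NA16 replicate 1 or NA16 replicate 2. Rras was called in 15 of 20, and was lost without A16 replicate 1, NA16 replicate 2 or technical replicate 2 (adjusted p = 0.0646, 0.0963 and 0.226). Araf rose by 0.41 (adjusted p = 0.0356) and was called in 10 of 20, and its other probe set had a change of 0.27 that was not called (adjusted p = 0.225).

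Of 16 other brakes on Ras and ERK, among them GTPase-activating proteins and scaffolds that hold ERK back, 12 were measured and 1 was called higher and 2 lower, with a median of 0.03. Rasal2, a GTPase-activating protein for Ras, fell by 0.90 (adjusted p = 9.75e-04), and Pea15, which keeps ERK in the cytoplasm, fell by 0.96 (adjusted p = 0.00151). Cblb, a ubiquitin ligase of activated receptors, rose by 0.73 (adjusted p = 0.00394). In the arms that signal through JNK, p38 and ERK5, the other substrates of these phosphatases among them, 16 of 20 genes were measured. Of these, 5 were called higher and 0 lower by limma, with a median of 0.06, beside 21.9% of all genes called higher and 16.9% lower. Map3k1, a kinase at the head of the JNK arm, rose by 1.67 (adjusted p = 2.14e-04), and Mapk14, the main p38 gene, by 0.73 (adjusted p = 0.00846). Mapk9, which encodes JNK2, rose by 0.60 (adjusted p = 0.0148), Map2k6, a kinase above p38, by 0.53 (0.0267), and the transcription factor gene Atf2 by 0.48 (0.0261). The other Mapk9 probe set had a change of 0.43 with overlapping arrays and was not called (adjusted p = 0.245). Mapk14 was called in 16 and Mapk9 in 15 of 20 alternatives, Map2k6 in 15 and Atf2 in 14 of 19, and each of the 4 lost its call without technical replicate 2. Single replicates mattered too: Mapk14, Mapk9 and Atf2 were lost without A16 replicate 1, Mapk9 without NA16 replicate 2, Map2k6 without A16 replicate 2, and Map2k6 and Atf2 without NA16 replicate 1. At an unadjusted limma p under 0.05, 1 gene was lower, Map3k7 (-0.33, adjusted p = 0.0896), and the methods' t-test, the plain test the study names, called 0 of the 16 after adjustment.

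Downstream, the genes known as outputs of ERK fell into opposite directions. All 19 were measured, 7 called higher and 8 lower, with a median of -0.24. The 5 with the largest rises encode transcription factors, Fos by 3.51, Fosb by 3.19, Egr2 by 2.64, Maff by 2.21 and Egr1 by 2.19, with adjusted p between 2.29e-05 and 1.25e-04, although a dimmer Fos probe set had a change of -0.07. Others of this kind differed. Junb rose by 1.31 (adjusted p = 5.04e-04), Egr3 (-0.07) and Fosl1 (-0.24) were not called, and Myc fell by 0.56 (adjusted p = 0.00688). Ier3, also on the list, rose by 0.94 (adjusted p = 8.60e-04). Apart from the 5 with the largest rises, the output genes named here were picked after their values were seen. The ETS factors Etv4 and Etv5, which like Dusp6 are used as readouts of growth factor signalling, had changes of -1.97 and -1.92, Phlda1 fell by 2.01, the receptor gene Epha2 fell by 1.33 and the cyclin gene Ccnd1 fell by 1.02, all called (adjusted p at most 0.0141). The second probe sets of Etv4 and Etv5 had changes of -1.10 (adjusted p = 0.051) and -0.04, and neither was called. Etv1, also an ETS factor on this list and brighter than both, did not fall (0.0009, adjusted p = 0.997). None of the other Etv1 probe sets was called either. A RefSeq window was given for 5 of the 7 genes that rose, 5 of the 8 that fell and 3 of the 4 not called. Among these, a CArG box was in 2 of 5 that rose (Egr1 and Egr2) and in 0 of 5 that fell. It was also in 2 of 3 not called (Etv1 and Srf), beside 1.5% of all windows. A CRE half-site was in 4 of 5 that rose, 2 of 5 that fell and 2 of 3 not called, beside 18.2% of windows. The hypoxia core was in 2, 1 and 0 genes, and the AP-1 site and ETS core in at most 1 gene of each group.

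**Figure D4:**
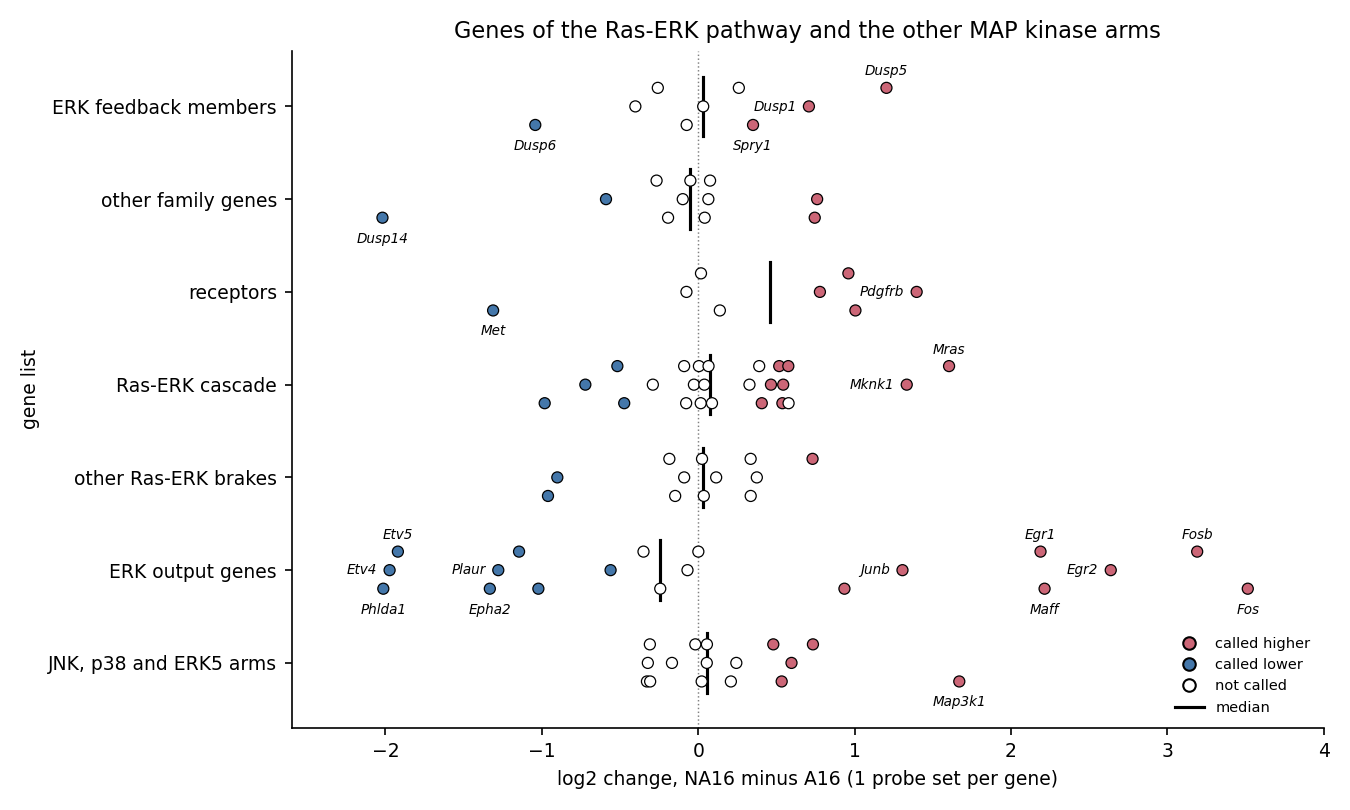
Change of every measured gene on each list, with the ERK feedback members on top. The x axis is the log2 change, NA16 minus A16, of the brightest probe set of a gene, points are genes, filled where limma called them, and the vertical bars are medians. The receptors have the highest median, 0.46, and the ERK output genes spread from Phlda1 at -2.01 to Fos at 3.51.

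The genes whose array profiles were nearest to those of Dusp5 and Dusp6 were found as the root mean square difference between log2 intensities, each gene centred on its mean over the 6 arrays. For Dusp5 they were Tbc1d17 (0.04 log2 units), Dcaf6, Narf, Eeig1 and Mideas (0.06 each), whose changes ran from 1.10 to 1.26. For Dusp6 they were Sdr39u1, Celf1, Cdca8, Hspa1a and Rtn4ip1 (0.09 to 0.10 log2 units), whose changes ran from -1.12 to -0.89. None of these 10 genes is on a list used here, and with 6 arrays in 2 states a near profile chiefly records a change of like size.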

How the data were processed

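Labelled RNA of F111 cells was hybridised by the authors to Affymetrix rat arrays, 3 per state. The authors scanned them with the GeneChip Operating Software and normalised them in Avadis by RMA and, separately, by PLIER. The versions of these 2 algorithms and a genome build are not stated in the sources used here. The deposited numbers are normalised intensities, which the authors left on a linear scale. They fill 12 columns, which are the same 6 arrays under both algorithms, so PLIER served as an alternative and not as further samples. The lowest intensity of any array was 16.0 to 17.6; such a floor makes the fold change of a dim gene too small. Detection calls were left out. Array number limits the precision.

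The log2 of each RMA intensity was taken. Probe sets were named by the platform annotation: of 31042 that were not controls, 20826 had 1 symbol, 436 several and 9780 none, and 20758 matched the GRCr8 RefSeq table by Entrez identifier with 0 symbols changed. The brightest probe set stood for each of 14217 genes. The labels number biological replicate 1 as technical replicate 1, so technical replicate 2 was averaged with it. The states were tested in limma 3.58.1 (lmFit, then eBayes; R 4.3.3), two-sided, with Benjamini-Hochberg adjustment over all genes, or over all probe sets where stated, and a threshold of 0.05. There were 2 residual degrees of freedom, and no filter on low values. All probe sets of the members are named, and from each pathway list up to 5 called genes by size of change plus measured core kinases (Araf, Map2k1, Map2k2). The procedure was run on simulated data with independent noise and far fewer changed genes than were called here, so that run does not measure the error rate of these calls. Members, lists and markers were chosen with earlier results of these data known. Start windows come from RefSeq and were searched on both strands. Members' results were recomputed under 22 alternatives: 20 by limma, and the methods' t-test before and after adjustment.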

Additional observations from a re-analysis of the deposited data

How the results depend on the processing

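The calls of Dusp1, Dusp5 and Dusp6 held in all 20 limma alternatives, Spry1 in 9, and no member's called change turned its sign. Spry1 was lost with PLIER values (adjusted p = 0.0902) and with 16 added to them (0.109). The same held with technical replicate 2 left out (0.164) or averaged with biological replicate 2 (0.084), and after quantile normalisation (0.057) or median centring (0.0641). It was also lost without each single replicate in turn. Those fits leave 1 sample in a state, whose spread is then unmeasured, and their variance is shared with all genes, so they say little about Spry1 itself. Dusp4 was called only with PLIER values, at 0.80 and, with 16 added, at 0.71. The cause was not tested.

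The methods' t-test, with 2 replicates against 2, gave unadjusted p of 0.00483 for Dusp5, 0.00682 for Spry1, 0.0496 for Dusp1 and 0.0504 for Dusp6, so that 3 members were higher and 0 lower. After adjustment it called 0 members higher and 0 lower, 0 genes of each of the 6 pathway lists, and 13 genes higher and 7 lower of all, against 3115 and 2409 by limma. Unadjusted, it called 2 receptors in place of 5, 5 cascade genes in place of 12 and 1 gene of the JNK, p38 and ERK5 arms in place of 5. Without technical replicate 2 the cascade had 6 and these arms 1, and with the NA16 technical array moved to biological replicate 2, a choice made after seeing the data, these arms had 3. Also chosen after seeing the data, leaving out the NA16 array of biological replicate 1 gave 2 members lower.

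Leaving out single replicates gave 2 members higher and 1 to 2 lower, the added one being Dusp10 without NA16 replicate 2, 2439 to 2631 genes higher and 2010 to 2078 lower, 6 to 8 cascade genes, 2 to 6 of the JNK, p38 and ERK5 arms, and 1 to 3 member probe sets higher. The lowest cascade counts came without A16 replicate 2 and without NA16 replicate 1, the lowest count of the arms without A16 replicate 1. In all these fits 1 state has a lone sample, and the variance rests partly or wholly on all genes. A call gained or lost in them, such as that of Dusp10, is therefore no result about that gene.

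The labels number the replicates alike in both states without saying that a number ties them. The differences between replicates 1 and 2 correlated across the states at 0.57, but 2 pairs cannot settle a pairing. With the replicate number as a block, 3 members were lower (Dusp6, Dusp10 at adjusted p = 0.00783 and Spry2 at 0.049), 6 other brakes and 9 genes of the JNK, p38 and ERK5 arms were called, and 4 member probe sets were higher.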
